A study of Mus musculus with 18 samples.

Results

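The mRNAs of the cytosolic chaperone HSP90 and 8 of its cochaperones were followed through heat shock (HS) and tunicamycin in NIH3T3 cells, an established mouse fibroblast line. The 10 genes were chosen by name: Hsp90aa1 and Hsp90ab1, which encode the alpha and beta forms of HSP90, and the cochaperone genes Stip1, St13, Cdc37, Ahsa1, Ptges3, Chordc1, Fkbp4 and Fkbp5. All 10 were among the 20207 genes listed in each of the 18 libraries and all 10 had at least 1 read in every library, so none was lost to the filter that left 12731 genes for testing. The libraries fall into 6 groups of 3. The reference was kept at 37 °C without tunicamycin (time 0). The HS groups were shifted to 42 °C for 45 or 135 min, and the tunicamycin (Tu) groups stayed at 37 °C with 5 µM tunicamycin, an inhibitor of N-linked glycosylation that loads the endoplasmic reticulum with unfolded protein, for 45, 135 or 405 min. Cells of every group, the reference included, stably expressed a destabilizing domain, a mutant of human FKBP12, fused to superfolder GFP, had been sorted for high GFP, and were kept in Shield-1, the ligand that holds the domain folded. The comparisons ask how HS, which unfolds proteins of the cytosol and nucleus, and tunicamycin, which acts in the secretory pathway, change the HSP90 machinery.

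HSP90 is an abundant dimeric ATPase that completes the folding of a selected set of clients, many of them kinases and steroid receptors. Clients reach it from HSP70 through a bridging cochaperone, and further cochaperones then set the pace of its ATP cycle or tune it for a class of clients. The alpha form is known in textbooks as the more stress-inducible gene product and the beta form as the more constitutive one. Heat shock factor 1 (HSF1) binds heat shock elements, which are built of alternating GAA and TTC units, and free HSP90 is among the chaperones held to restrain HSF1 in unstressed cells.

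Promoter sequence was taken from RefSeq on build GRCm38.p6, as windows from 250 bases before to 50 bases after the start site, and a window was found for 7 of the 10 genes (Stip1, Ahsa1, Fkbp4, Fkbp5, Cdc37, Ptges3 and Chordc1, not Hsp90aa1, Hsp90ab1 and St13). The windows were searched for paired units, GAANNTTC or TTCNNGAA, and for runs of a further unit, GAANNTTCNNGAA or TTCNNGAANNTTC. Each shorter motif is its own reverse complement and the longer ones are reverse complements of each other, so both strands were covered, and every longer run contains the shorter motifs. Of all 32851 windows of this length, 15.1% held a paired unit and 0.603% a longer run. The 3 windows below are shown because Chordc1 held the most matches among these genes, while Fkbp4 and Stip1 had the largest changes in HS among the genes with a window and held 1 match and 0 matches. Capitals mark the matches, and the strand shown is that of the gene.
Chordc1 (chr9:18292017-18292316, plus strand): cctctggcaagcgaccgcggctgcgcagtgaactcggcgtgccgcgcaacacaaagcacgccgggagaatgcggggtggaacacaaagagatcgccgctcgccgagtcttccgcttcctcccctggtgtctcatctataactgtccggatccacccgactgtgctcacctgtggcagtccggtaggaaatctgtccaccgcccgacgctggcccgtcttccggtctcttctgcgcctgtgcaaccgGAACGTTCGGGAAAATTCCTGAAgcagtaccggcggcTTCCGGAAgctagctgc
Fkbp4 (chr6:128438607-128438906, minus strand): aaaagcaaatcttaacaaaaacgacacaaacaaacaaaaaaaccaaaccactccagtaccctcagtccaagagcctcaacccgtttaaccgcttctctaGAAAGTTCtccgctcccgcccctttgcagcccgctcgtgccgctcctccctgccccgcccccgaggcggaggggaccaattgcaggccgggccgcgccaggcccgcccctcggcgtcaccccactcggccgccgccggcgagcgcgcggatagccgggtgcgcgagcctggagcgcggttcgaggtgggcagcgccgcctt
Stip1 (chr19:7039977-7040276, minus strand): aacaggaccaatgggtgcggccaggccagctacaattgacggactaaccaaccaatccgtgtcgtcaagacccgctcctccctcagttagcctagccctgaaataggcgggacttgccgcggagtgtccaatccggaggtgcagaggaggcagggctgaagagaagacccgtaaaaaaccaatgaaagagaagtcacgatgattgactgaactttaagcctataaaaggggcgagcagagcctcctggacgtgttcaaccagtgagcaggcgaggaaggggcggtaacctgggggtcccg
Chordc1 held 5 overlapping or neighbouring matches of the paired unit, with first bases at -4, 2, 7, 12 and 34 counted from the start site (1 being the first transcribed base), and 3 matches of the longer run. In the Fkbp4 window the match began at -151, and in Cdc37 1 match began at -170. The windows of Ahsa1, Fkbp5, Ptges3 and Stip1 held 0 matches, which says only that these letters were not within the window.

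The libraries held 33415592 to 66478268 reads on genes, and the 10 genes had between 190 reads (Chordc1, lowest library) and 589500 reads (Hsp90ab1, highest library), so the errors given reflect spread between libraries far more than counting. The labels do not say whether the 3 libraries of a group came from separate cultures, and p-values measure only the spread between these libraries. In each of 4 groups 1 library stood apart from the other two: reference 1, HS 45 min 3, HS 135 min 2 and Tu 135 min 1, each at least 0.01 lower in its correlation of log2(CPM + 1) over genes than the most alike pair. The lowest correlation within a group was 0.934. Fibroblast genes such as Col1a1 (649 to 4096 RPKM) and Vim (1637 to 3689 RPKM) were high in every library, the median library had 0 RPKM of the epithelial gene Epcam and of the leukocyte gene Ptprc, and the macrophage gene Cd68 was at 3.72 to 7.61 RPKM. The stresses showed in their classical genes: the HSP70 gene Hspa1b rose from 5.76 ± 0.472 to 873 ± 530 CPM (SD, n = 3) at 135 min of HS, and the endoplasmic reticulum chaperone Hspa5 from 692 ± 40.4 to 9010 ± 252 CPM (SD, n = 3) at 405 min of tunicamycin. In bulk RNA, a change in RNA per cell cannot be told apart from a change in the make-up of the cells.

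Long stretches of some of these transcripts recur in the genome as near-identical copies, which bears on how their reads were placed. Of the overlapping 31-base stretches of the longest transcript, 78.3% occurred elsewhere in the genome for Hsp90aa1 and 71.0% for Ptges3, against 23.5% for Hsp90ab1, 15.7% for Ahsa1, 10.3% for Stip1 and at most 8.7% for the other 5 genes. How the authors' counting treated reads with several matches is not given in the sources used here, so the levels of Hsp90aa1 and Ptges3 relative to other genes are uncertain. The alpha and beta transcripts shared only 3 such stretches with each other, so few reads could be exchanged between them.

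Per length, the beta form was the most abundant of the 10 mRNAs in the reference. Hsp90ab1 (chromosome 17 of mm9, 45704727 to 45710210) stood at 1441 ± 407 RPKM (SD, n = 3), and Hsp90aa1 (chromosome 12, 111929246 to 111934605) at 263 ± 73.9 RPKM. Stip1 (231 ± 43.9 RPKM) and Fkbp4 (211 ± 11.6 RPKM) were within a SD of the alpha form. Ahsa1 (129 ± 18.7 RPKM), St13 (111 ± 43.6 RPKM) and Cdc37 (91.7 ± 5.51 RPKM) followed and overlapped in part, then Ptges3 (67.4 ± 29.5 RPKM), Fkbp5 (28.0 ± 1.56 RPKM) and Chordc1 (11.2 ± 3.21 RPKM). Fkbp5 and Chordc1 did not overlap with each other or with any of the others, and Ptges3 overlapped with St13 and Cdc37.

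**Figure D1:**
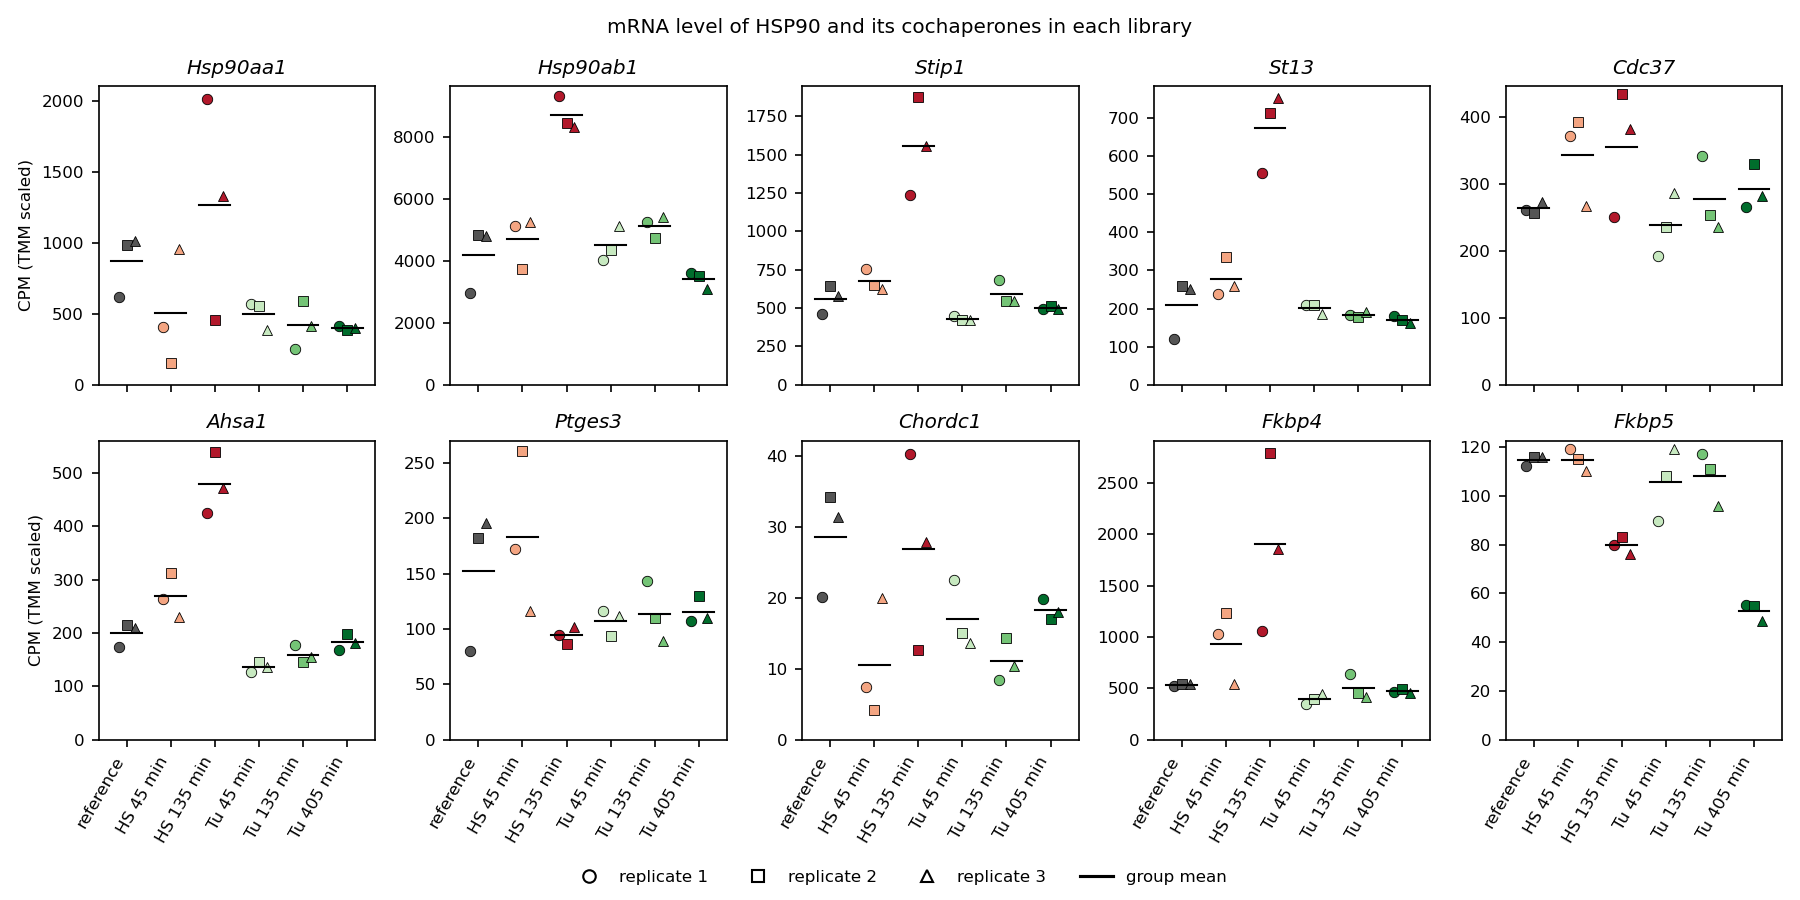
Level of each of the 10 mRNAs (CPM on 1 TMM scale, linear axes from 0) in the 18 libraries, by group, with the replicate number as the symbol and the group mean as a line. At 135 min of HS all 3 libraries of Hsp90ab1, Stip1, St13, Ahsa1 and Fkbp4 lie above the reference, while Hsp90aa1 spans 454 to 2010 CPM. At 405 min of tunicamycin Fkbp5 lies at 48.5 to 55.2 CPM against 112 to 116 in the reference.

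The beta form was higher in all 3 libraries at 135 min of HS than in any reference library, although the difference did not pass the threshold. Hsp90ab1 was at 2970, 4822 and 4815 CPM (reads scaled to a common library size by TMM) in the reference, 5127, 3747 and 5246 CPM at 45 min of HS, and 9322, 8431 and 8332 CPM at 135 min. With tunicamycin it was at 4024, 4345 and 5127 CPM at 45 min, 5245, 4743 and 5413 CPM at 135 min, and 3618, 3513 and 3107 CPM at 405 min. The 3 libraries at 135 min of HS were the highest of all 18, and no other group left the reference range entirely. The log2 fold change at 135 min of HS was 1.05 (standard error 0.28), a 2.07-fold difference with an adjusted p = 0.0574 (edgeR quasi-likelihood, Benjamini-Hochberg over all genes). The adjusted p-values that follow come from this test unless another is named. The DESeq2 Wald test (adjusted p = 0.00489), edgeR's exact test (adjusted p = 0.00588) and a shared fit of all 6 groups (adjusted p = 0.00168) did call it. Between 135 and 405 min of tunicamycin Hsp90ab1 fell by 0.59 on the log2 scale (standard error 0.15, adjusted p = 0.0165), and all 3 later libraries lay below all 3 earlier ones.

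The alpha form varied widely between the HS libraries. Hsp90aa1 was at 618, 986 and 1010 CPM in the reference, 408, 153 and 954 CPM at 45 min of HS, and 2010, 454 and 1327 CPM at 135 min. The HS groups therefore overlapped with the reference at both times, and the highest library exceeded the lowest by 6.23-fold at 45 min and 4.43-fold at 135 min, against 1.63-fold in the reference. The log2 fold change was -0.79 (standard error 0.59, adjusted p = 0.403) at 45 min and 0.54 (standard error 0.49, adjusted p = 0.486) at 135 min. With tunicamycin, Hsp90aa1 was at 567, 553 and 385 CPM at 45 min, 250, 593 and 411 CPM at 135 min, and 412, 383 and 403 CPM at 405 min, so that all 9 libraries lay below the lowest reference library. It fell by 1.13 on the log2 scale at 405 min (standard error 0.20, adjusted p = 0.00235), a 2.18-fold decrease. The earlier differences, -0.80 at 45 min (adjusted p = 0.0861) and -1.06 at 135 min (adjusted p = 0.174), did not pass the threshold.

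Within each library, the alpha form made up a smaller share of HSP90 mRNA under tunicamycin than in the reference. Its share of the summed RPKM of both forms was 15.5%, 15.2% and 15.6% in the reference, a spread of 0.17 percentage points (SD). With tunicamycin it was 11.0%, 10.1% and 6.19% after 45 min, 4.03%, 9.91% and 6.26% after 135 min, and 9.10%, 8.74% and 10.2% after 405 min. All 9 tunicamycin libraries were below all 3 reference libraries. In HS the shares were 6.53%, 3.47% and 13.8% at 45 min and 15.9%, 4.52% and 12.3% at 135 min, so that 5 of 6 HS libraries were below the reference and 1 above it. The log2 ratio of the alpha to the beta form differed from the reference by -1.06 over the 9 tunicamycin libraries (exact two-sided permutation p = 0.00909, the smallest that 9 against 3 libraries allow, 0.0636 after adjustment over 7 such comparisons, above the threshold) and by -1.03 over the 6 HS libraries (exact permutation p = 0.0952, adjusted 0.117). Each stressed group alone allows no p below 0.1, and that value was reached by every group but HS at 135 min (exact permutation p = 0.4), where the mean difference was -0.76. With tunicamycin the beta form itself was 1.07-fold and 1.22-fold of the reference at 45 and 135 min and 0.812-fold at 405 min, none past the threshold. Within groups, Hsp90aa1 ran with an axis of spread shared by many genes, described below (correlation 0.96), and Hsp90ab1 less so (0.39). The ratio was not adjusted for that axis, and the part of the axis in these differences was not tested.

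**Figure D2:**
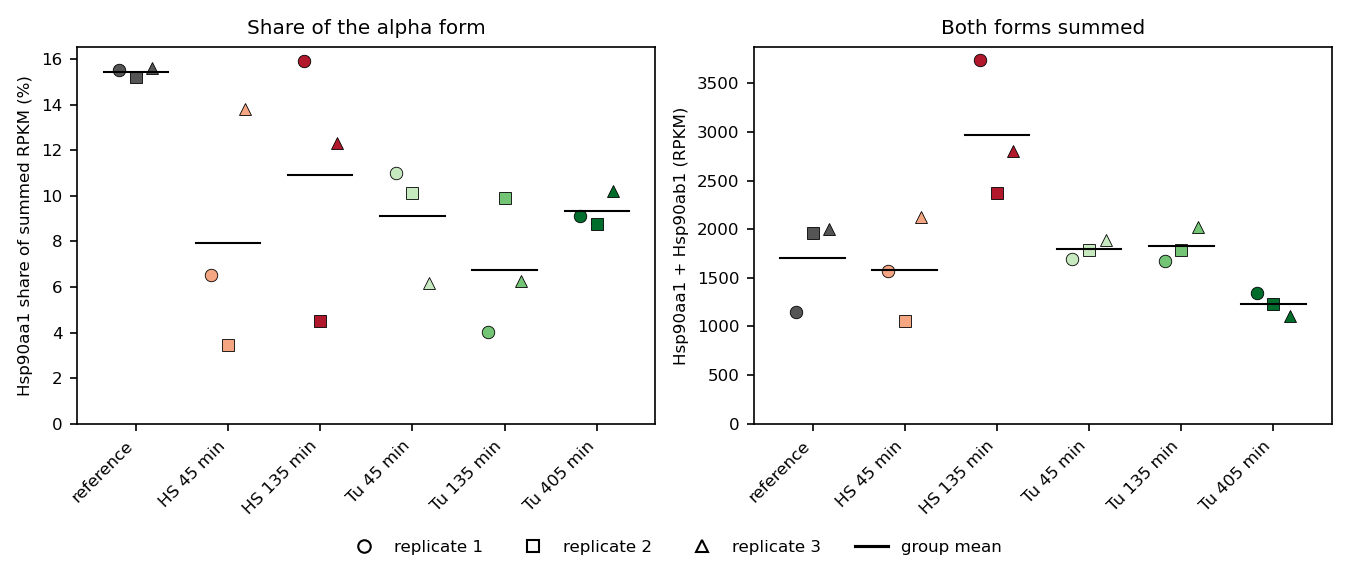
Left, share of Hsp90aa1 in the summed RPKM of Hsp90aa1 and Hsp90ab1 (percent), and right, the sum itself (RPKM), in each of the 18 libraries, with group means as lines and both axes from 0. The 3 reference libraries sit at 15.2% to 15.6%, the 9 tunicamycin libraries at 4.03% to 11.0%, and the HS libraries scatter from 3.47% to 15.9%, while the sum is highest at 135 min of HS (2969 ± 700 RPKM, SD, n = 3).

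At 135 min of HS, 4 of the 10 genes rose and 0 fell: Stip1, St13, Ahsa1 and Fkbp4. Over all genes tested, 4.75% were called higher and 2.64% lower in this comparison. All 4 are cochaperones, and the median log2 fold change of the 8 cochaperones was 0.85, against -0.02 over all genes. Groups that do not overlap were found in 5 of the 10 genes in the higher direction (these 4 and Hsp90ab1), against 18.1% of all genes, and in 1 in the lower direction (Fkbp5), against 19.1%.

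Stip1 and St13 serve the hand-over from HSP70. Stip1 (HOP, chromosome 19 of mm9, 7095197 to 7114433), which binds HSP70 and HSP90 at once, was at 462, 642 and 578 CPM in the reference and at 1237, 1876 and 1556 CPM at 135 min of HS. Every HS library was thus above every reference library, and the log2 fold change was 1.47 (standard error 0.25, adjusted p = 0.0207). St13 (Hip, chromosome 15, 81195474 to 81230124), which stabilizes HSP70 in its ADP-bound state, was at 121, 258 and 250 CPM in the reference and at 556, 712 and 752 CPM at 135 min. Its log2 fold change was 1.68 (standard error 0.32, adjusted p = 0.0265), and again the groups did not overlap.

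Ahsa1 and Fkbp4 act on HSP90 itself. Ahsa1 (Aha1, chromosome 12, 88607678 to 88614902), the cochaperone that stimulates the ATPase of HSP90, was at 174, 215 and 210 CPM in the reference and at 426, 540 and 473 CPM at 135 min of HS (log2 1.27, standard error 0.20, adjusted p = 0.0199). Fkbp4 (FKBP52, chromosome 6, 128380125 to 128388649), an immunophilin found in steroid receptor complexes, was at 522, 545 and 537 CPM in the reference and at 1060, 2787 and 1858 CPM at 135 min. Its fold change was the largest of the 10 genes in this fit (log2 1.83, standard error 0.35, adjusted p = 0.0265). The rank did not hold in every fit: without reference 2, St13 was at 1.86 and Fkbp4 at 1.85. The HS libraries of Fkbp4 differed from each other by 2.63-fold while the reference libraries differed by 1.04-fold.

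The calls at 135 min of HS rest on few libraries. Without HS 135 min 3, without reference 2 or without reference 3, 0 of the 10 genes were called, and over all genes only 10 to 12 were called higher. The log2 fold changes stayed between 1.17 and 2.12 for these 4 genes in every fit that left out 1 library. Without HS 135 min 1, 6 genes were called higher, with Hsp90ab1 and Cdc37 (0.63) added to the 4 (1534 of the 12731 genes were called higher). Without reference 1, St13 and Ahsa1 remained called and Ptges3 was called lower (adjusted p = 0.0461), against 2.13% of all genes called higher and 1.38% lower. Without reference 1 and HS 135 min 2 together, an alternative added after the data were seen, 5 genes were called higher (the same 4 and Hsp90ab1) and 2 lower (Ptges3 and Fkbp5), against 1531 and 1726 of the 12731 genes. Leaving out the library least like its group narrows the spread by construction.

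**Figure D3:**
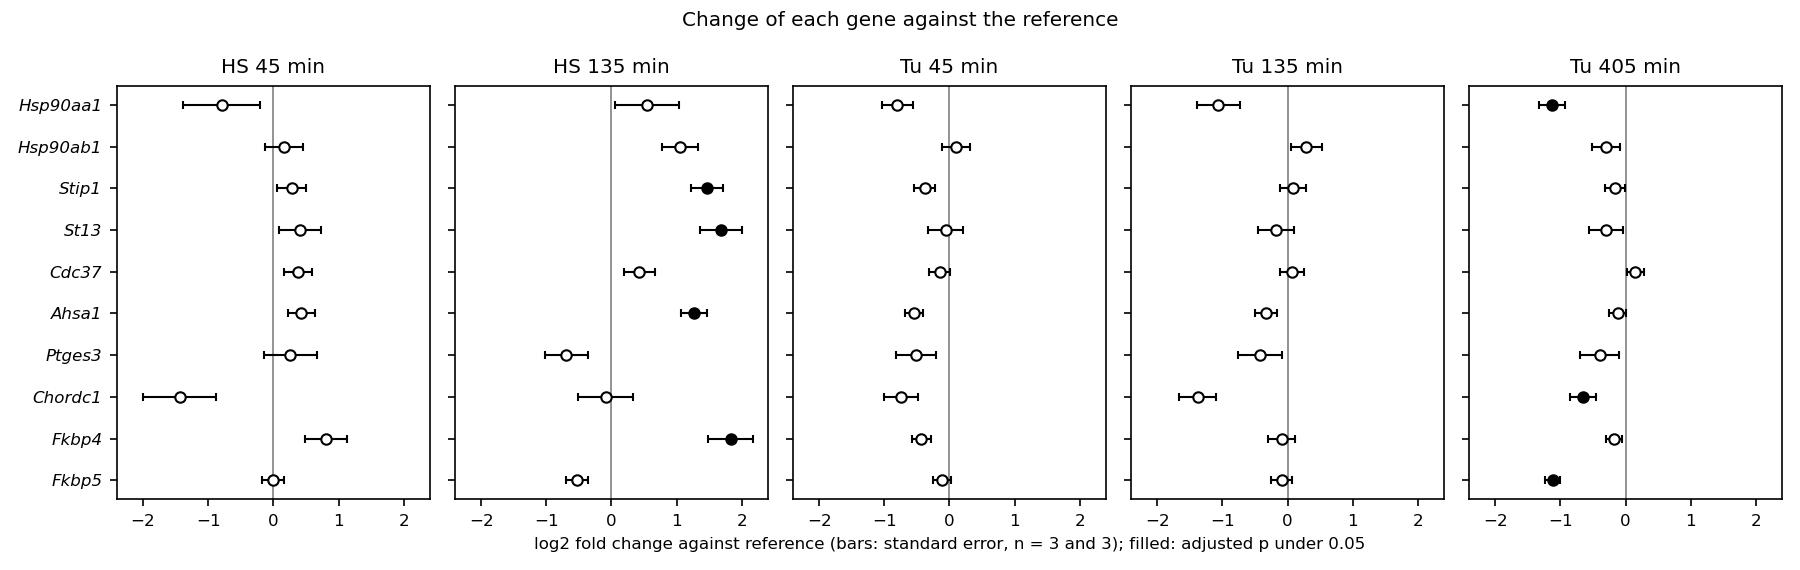
Log2 fold change against the reference (x axis) of the 10 genes (y axis) in each stressed group, with the standard error from edgeR's fit as bars and an adjusted p under 0.05 as a filled point. At 135 min of HS the filled points are Stip1, St13, Ahsa1 and Fkbp4 (1.27 to 1.83), and at 405 min of tunicamycin Hsp90aa1, Chordc1 and Fkbp5 (-1.13 to -0.65).

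The other 4 cochaperones did not pass the threshold in HS in this test. Cdc37 (chromosome 9, 20942985 to 20954350), which recruits kinases to HSP90, was at 261, 257 and 273 CPM in the reference, 371, 393 and 267 CPM at 45 min and 251, 434 and 382 CPM at 135 min. Ptges3 (p23, chromosome 10, 127496038 to 127514310), which slows ATP hydrolysis by the client-bound complex, was at 80.2, 182 and 196 CPM in the reference and at 95.0, 86.0 and 102 CPM at 135 min, a log2 fold change of -0.69 (adjusted p = 0.198), with reference 1 below and reference 2 and 3 above all 3 HS libraries. Fkbp5 (FKBP51, chromosome 17, 28536040 to 28623057), an immunophilin that lowers hormone binding by the glucocorticoid receptor, was at 112, 116 and 116 CPM in the reference, 119, 115 and 110 CPM at 45 min and 79.9, 83.1 and 76.0 CPM at 135 min. These last 3 libraries lay below all reference libraries within a narrow range, with a log2 fold change of -0.53 (adjusted p = 0.0936), opposite in sign to that of Fkbp4. A shared fit of all 6 groups (adjusted p = 0.0074) and a scaling by total counts (-0.69, adjusted p = 0.0495) did call Fkbp5 lower at 135 min. Chordc1 (Morgana, chromosome 9, 18096711 to 18118444), an HSP90-binding CHORD protein, was at 20.2, 34.3 and 31.5 CPM in the reference, 7.48, 4.14 and 20.0 CPM at 45 min and 40.4, 12.6 and 27.9 CPM at 135 min. Its promoter window, the richest in heat shock units among the 7 genes with a window, stood beside a difference of -0.09 on the log2 scale (standard error 0.42, adjusted p = 0.902) at 135 min. A relation of the units to the response was not tested.

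At 45 min of HS, edgeR called 0 of the 10 genes and 0.0% of all genes. The DESeq2 Wald test and edgeR's exact test also called 0 of the 10 genes here, while over all genes the Wald test called 386 higher and 65 lower and the exact test 251 and 39. At an unadjusted p under 0.05, 1 gene was higher (Fkbp4, log2 fold change 0.81, adjusted p = 0.242), against 12.3% of all genes, and 1 lower (Chordc1, -1.44, adjusted p = 0.241), against 7.16%. Fkbp4 was at 1030, 1233 and 540 CPM, so that libraries 1 and 2 were far above the reference and library 3, which stands apart from them, was at its level. Without HS 45 min 3, 5 of the 10 genes were called: Fkbp4 (1.08), Cdc37 (0.54) and Ahsa1 (0.53) higher, Hsp90aa1 (-1.64) and Chordc1 (-2.30) lower. In that fit 21.5% of all genes were called higher and 23.9% lower, so that the count for the 10 genes is near the background.

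Between 45 and 135 min of HS, edgeR likewise called 0 of the 10 genes and 0.0% of all genes. At an unadjusted p under 0.05, 4 were higher at the later time (Hsp90ab1, Stip1, St13 and Ahsa1) and 2 lower (Ptges3 and Fkbp5), against 5.8% and 5.32% of all genes. These were also the genes whose groups did not overlap (9.43% of all genes in the higher and 8.33% in the lower direction). The DESeq2 Wald test called 4 of them higher (1.52% of all genes) and edgeR's exact test 2 (Stip1 and St13, 0.903% of all genes). St13 was at 237, 336 and 260 CPM at 45 min and at 556 to 752 CPM at 135 min (log2 1.28, standard error 0.23, adjusted p = 0.160). Stip1 was at 754, 653 and 628 CPM at 45 min, and its difference was 1.20 (standard error 0.24, adjusted p = 0.178).

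With tunicamycin, 0 of the 10 genes rose past the threshold against the reference at any of the 3 times, and those that fell did so at 405 min. At 45 min edgeR called 0 of the 10 genes (5.49% of all genes). At an unadjusted p under 0.05, 5 were lower (Hsp90aa1, Stip1, Ahsa1, Chordc1 and Fkbp4, against 12.5% of all genes) and 0 higher (13.1% of all genes). Ahsa1 was at 127, 145 and 137 CPM, all below the reference, with a difference of -0.55 on the log2 scale (standard error 0.14, adjusted p = 0.0560), and Fkbp4 was at 350, 392 and 446 CPM (-0.43, adjusted p = 0.105). The DESeq2 Wald test called 3 genes lower at this time (Hsp90aa1, Ahsa1 and Fkbp4, against 6.84% of all genes) and edgeR's exact test 2 (5.2%). Without reference 1 the quasi-likelihood test called 5 lower, against 9.17% of all genes. At 135 min edgeR called 0 of the 10 genes (0.0864% of all genes). At an unadjusted p under 0.05, 2 were lower (Hsp90aa1 and Chordc1, against 9.41% of all genes) and 0 higher (9.25%). Chordc1 was at 8.44, 14.3 and 10.4 CPM (-1.38, standard error 0.28, adjusted p = 0.101), and the DESeq2 Wald test and edgeR's exact test each called it and no other of the 10 (2.64% and 2.14% of all genes were called lower). Without reference 1 and Tu 135 min 1 together, again an alternative added after the data were seen, 6 genes were called lower, against 25.2% of all genes.

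At 405 min of tunicamycin, 3 of the 10 genes fell (Hsp90aa1, Chordc1 and Fkbp5) and 0 rose. This is close to the background, since 24.2% of all genes were called lower in this comparison and 22.4% higher. Fkbp5 was at 55.2, 54.7 and 48.5 CPM, and fell by 1.12 on the log2 scale (standard error 0.11, adjusted p = 0.000184). It was still at 89.5, 108 and 119 CPM at 45 min and at 117, 111 and 96.0 CPM at 135 min, and the difference between 135 and 405 min was -1.03 (standard error 0.13, adjusted p = 0.000895). Chordc1 was at 19.8, 17.0 and 18.1 CPM, below the reference range of 20.2 to 34.3 CPM by a small margin, at -0.65 on the log2 scale (standard error 0.20, adjusted p = 0.0293). It had risen from 135 to 405 min by 0.73 (standard error 0.21, adjusted p = 0.0250). In the comparison of the later times, 22.2% of all genes were called higher and 21.7% lower. The falls of Fkbp5 and Hsp90aa1 at 405 min passed the threshold whichever library was left out, while that of Chordc1 did so only without reference 1. The shared fit of all 6 groups left Fkbp5 as the 1 gene called, with Hsp90aa1 at an adjusted p = 0.135 and Chordc1 at 0.327. Without reference 1, 7 of the 10 genes were called lower at 405 min, with Hsp90ab1 (-0.50), Stip1 (-0.28), St13 (-0.58) and Ptges3 (-0.71) added, in a fit that called 31.6% of all genes lower.

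None of the cochaperones that rose in HS passed the threshold upward with tunicamycin, and the difference between the stresses was tested at 135 min, where both were sampled. St13 was at 183, 178 and 192 CPM with tunicamycin, and was higher in HS by 1.87 (standard error 0.19, adjusted p = 0.0169). Ahsa1 was at 177, 145 and 155 CPM, and was higher in HS by 1.60 (standard error 0.18, adjusted p = 0.0191). Stip1 was at 685, 549 and 545 CPM, and was higher in HS by 1.39 (standard error 0.23, adjusted p = 0.0399). These 3 were the calls among the 10 genes, against 1.41% of all genes called higher and 0.778% lower, and Fkbp4, at 642, 452 and 418 CPM, missed the threshold (1.92, standard error 0.38, adjusted p = 0.0566). Leaving out HS 135 min 3 or any of the tunicamycin libraries left 0 of the 10 genes called, and at most 2 of the 12731 genes tested. Ahsa1 was at 1.50 to 1.68 and St13 at 1.78 to 1.99 in the 6 fits that left out 1 library.

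Much of the spread within groups ran along 1 axis shared by many genes, and several of the 10 lay close to it. The axis was estimated as a surrogate variable, the main direction in which libraries of the same group differ, and it placed HS 45 min 1 and 2 (-0.318 and -0.527), HS 135 min 2 (-0.495) and Tu 135 min 1 (-0.212) at its low end and the other libraries between -0.040 and 0.248. Within groups, the correlation with it over 18 libraries was 0.96 for Hsp90aa1 and Chordc1, -0.94 for Fkbp4, -0.86 for Cdc37 and -0.69 for Ahsa1, and 0.39 for Hsp90ab1. These values are descriptions, since the axis was computed from the same libraries and all genes. Across 12034 genes, the correlation with the axis went with the GC content of the transcript (Spearman rho -0.70 across genes, which are not independent). Chordc1 (39.2% GC) and Hsp90aa1 (43.7%) are below the median gene (50.6%) and Fkbp4 (55.5%) and Cdc37 (53.7%) above it, and St13 (43.3%, correlation 0.00) and Ptges3 (43.2%, correlation -0.27) are below it too. The part of GC content in the differences between groups was not tested.

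**Figure D4:**
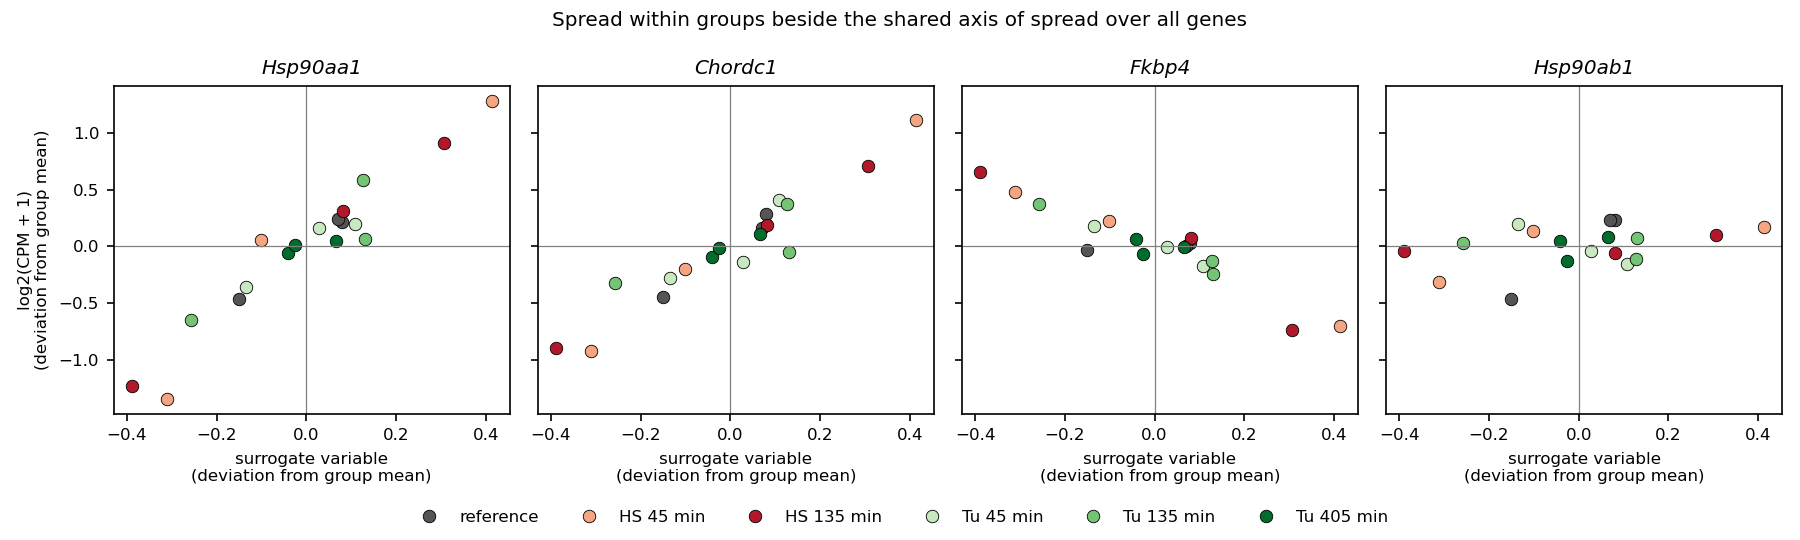
Deviation of log2(CPM + 1) from the group mean (y axis) against the deviation of the surrogate variable from its group mean (x axis, no unit) for Hsp90aa1, Chordc1, Fkbp4 and Hsp90ab1 in the 18 libraries, colored by group. Hsp90aa1 and Chordc1 run up along the axis (correlation 0.96), Fkbp4 runs down (-0.94), and Hsp90ab1 scatters (0.39).

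With that variable as a covariate in a fit of all 6 groups, both forms of HSP90 were called higher at 135 min of HS. Hsp90aa1 was then 1.17 higher on the log2 scale (adjusted p = 0.00011) and Hsp90ab1 1.15 higher (adjusted p = 0.000155). The variable was computed from the spread within groups of these same libraries, so it takes up part of that spread. The p-values of this fit may therefore be too small, most of all for genes close to the axis such as Hsp90aa1 (correlation 0.96). In the same fit Fkbp4 was 1.28 higher, Stip1 1.35, St13 1.67 and Ahsa1 1.13, while Chordc1 turned from -0.09 to 0.49 (adjusted p = 0.0271). Of the 10 genes, 7 were called higher and 2 lower (Ptges3, -0.84, and Fkbp5, -0.58), against 18.8% and 20.6% of all genes. The fit of the 6 libraries alone called 4 higher, and the fit of all 6 groups without the variable called 5 higher and 1 lower, with Hsp90ab1 and Fkbp5 added to the 4. Over all genes, the first of these called 4.75% higher and 2.64% lower, and the second 14.4% and 11.1%. The difference of the alpha form at 45 min of HS turned from -0.79 to 0.09. With tunicamycin the fall of Hsp90aa1 at 405 min shrank from 1.13 to a log2 fold change of -0.57 (adjusted p = 0.00966), and that of Fkbp5 was -1.15. Chordc1 was no longer called there (-0.19, adjusted p = 0.333), and Fkbp4 was called lower (-0.46, adjusted p = 0.00699). The variable was lower in 4 of 6 HS libraries than in any reference library (0.017 to 0.248). It was also lower in Tu 45 min 3 (-0.027), Tu 135 min 1 (-0.212), Tu 405 min 2 (-0.04) and Tu 405 min 3 (-0.025), but not in the other tunicamycin libraries. For either stress, the covariate and the stress are thus in part confounded and cannot be told apart for the genes that lie along the axis.

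Set against the HSP90 pool of the same library, the cochaperones kept different pace with it. In RPKM per 100 RPKM of both HSP90 forms, Fkbp4 was at 13.1 ± 3.59 (SD, n = 3) in the reference and 23.4 ± 12.7 at 135 min of HS, and Stip1 at 13.9 ± 1.84 and 19.6 ± 6.09, ranges that overlap. St13 went from 6.36 ± 0.919 to 10.8 ± 2.65 without overlap. Ptges3 was at 3.81 ± 0.779 and 1.24 ± 0.139, Fkbp5 at 1.73 ± 0.475 and 0.587 ± 0.0797, and Chordc1 at 0.656 ± 0.0293 and 0.303 ± 0.129, each without overlap in the lower direction. The HSP90 pool itself was at 1703 ± 481 RPKM in the reference and 2969 ± 700 RPKM at 135 min of HS. A gene of unchanged level therefore has a lower ratio at 135 min of HS. Chordc1 itself differed by only -0.09 on the log2 scale there (edgeR quasi-likelihood, adjusted p = 0.902). The ratios inherit the spread of the pool and were not tested, and the share of all genes without overlap was not computed for them.

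Of 27 further HSP90 cochaperone genes tested, 2 rose at 135 min of HS and 1 fell, near the shares over all genes (4.75% and 2.64%), with a median log2 fold change of 0.03 against -0.02 over all genes. Ahsa2, a relative of Ahsa1, rose from 34.9 ± 11.0 to 101 ± 1.40 CPM (SD, n = 3, log2 fold change 1.53, adjusted p = 0.0224), and the NudC family gene Nudc from 118 ± 19.6 to 339 ± 123 CPM (1.52, adjusted p = 0.0300). Tomm70a, the mitochondrial import receptor that docks HSP90, fell from 64.5 ± 6.04 to 28.7 ± 8.21 CPM (-1.17, adjusted p = 0.0393). At 405 min of tunicamycin 6 of the 27 rose and 4 fell, again near the shares over all genes (22.4% and 24.2%), with Fkbpl (0.96) and Ruvbl2 (0.59) as the largest rises and Tsc1 (-0.84), Nudcd3 (-0.74) and Fnip2 (-0.70) as the largest falls.

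Among the HSP90 relatives of other compartments, Hsp90b1 rose late with tunicamycin and Trap1 did not pass the threshold. Hsp90b1 (GRP94), which serves the endoplasmic reticulum, was at 512 ± 254 CPM in the reference and 823 ± 175 CPM at 135 min of HS (SD, n = 3, adjusted p = 0.295), and rose to 3743 ± 217 CPM at 405 min of tunicamycin (log2 2.87, standard error 0.39, adjusted p = 0.000701). It was still at 508 ± 40.6 CPM at 135 min of tunicamycin, where the difference between HS and tunicamycin was 0.70 on the log2 scale (adjusted p = 0.136). HS at 135 min and tunicamycin at 405 min were not tested against each other. Trap1, the mitochondrial form, was at 168 ± 22.3 CPM in the reference and did not pass the threshold in any comparison, with log2 fold changes between -0.08 and 0.20.

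Among the clients, 28 of 30 listed genes were tested. At 135 min of HS 4 rose and 1 fell (median log2 fold change 0.21), against 4.75% and 2.64% of all genes: Esr1, an estrogen receptor gene that went from 0.216 ± 0.0641 to 1.53 ± 0.177 CPM (SD, n = 3, log2 fold change 2.79, adjusted p = 0.0122), the dioxin receptor gene Ahr (2.84-fold, adjusted p = 0.0214), Igf1r (147 ± 38.4 to 294 ± 29.0 CPM, adjusted p = 0.0449) and the kinase gene Fyn (0.97, adjusted p = 0.0393, named after its value was seen) rose, and the mitotic kinase gene Plk1 fell (-0.89, adjusted p = 0.0358). Esr1 had few reads in the reference, where 3 reads correspond to 0.0536 to 0.0753 CPM. At 405 min of tunicamycin 4 clients rose and 14 fell, with a median of -0.47 against -0.03 over all genes and with 22.4% of all genes called higher and 24.2% lower. The largest falls were those of Met (-2.16), of the glucocorticoid receptor gene Nr3c1 (-1.37, 57.7 ± 8.67 to 22.2 ± 4.13 CPM, adjusted p = 0.000577) and of Erbb2 (-1.25). The largest rises were those of Fyn (1.77, 55.7 ± 9.34 to 189 ± 2.71 CPM, adjusted p = 7.48e-05) and Ahr (0.71).

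The genes whose levels ran most like those of the 2 HSP90 forms were different sets. Over 18 libraries and 8278 genes with a mean of at least 10 CPM, the highest correlations of log2(CPM + 1) with Hsp90aa1 were those of Cd9 (0.93), Dnajb4 (0.90), Rybp (0.89), Ints2 (0.89) and Sord (0.89), and Hsp90ab1 ranked at 1219 (0.51). For Hsp90ab1 they were Sh3d19 (0.94), Zfand2a (0.89), Ahsa2 (0.89), C2cd3 (0.88) and Taok3 (0.88). These correlations are over libraries that share groups, and those of Hsp90aa1 also carry the axis within groups.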

How the data were processed

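Poly(A) RNA was sequenced in 18 libraries (6 groups of 3, grouped by the labels). The study's methods name 2 ways of preparing libraries without saying which library was made by which, and their part in the results was not tested. The authors aligned the reads to mm9 and assigned them to RefSeq genes on the DNAnexus platform, and deposited for each gene an estimated count of reads, written with 4 significant digits, and an RPKM value. The aligner, the counter and their versions are not given in the sources used here. A score column and a signal column that the authors also deposited were not used. Estimated counts were rounded to whole numbers, genes with at least 1 read in all 18 libraries were kept (12731), and edgeR 4.0.16 was fitted to the 6 libraries of each comparison with TMM factors over all 18, the quasi-likelihood test and Benjamini-Hochberg adjustment over all genes (threshold 0.05). A count of 3 reads corresponds to 0.0397 to 0.0821 CPM. The alpha to beta ratio was tested on log2 RPKM by exact permutation. Alternatives used DESeq2 1.42.0, edgeR's exact test and sva 3.50.0, other filters and scalings, and libraries left out. Scripts were tested on simulated data.

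The 10 genes, the gene lists and the tests were chosen with earlier results of these data known. The genes named are all 10, up to 3 called genes per direction from each list in the last HS and the last tunicamycin group, the stress genes, and the 5 most correlated genes of each HSP90 form. The result of 1 listed gene is not reported here. Same-numbered libraries deviated together in every pair only for tunicamycin at 135 min and the reference (correlations 0.342, 0.322 and 0.299), which is a hint from the data, since the labels name no shared batch; 0 of the 10 genes were called there with or without the replicate block.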

Additional observations from a re-analysis of the deposited data

Results flagged for a closer look

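The tests between stressed groups found 6 differences among the 10 genes, with 3 libraries a group and adjusted p-values from edgeR (quasi-likelihood). Between 135 and 405 min of tunicamycin, Hsp90ab1 was lower at the later time (log2 difference -0.59, adjusted p = 0.0165), Fkbp5 was lower (-1.03, adjusted p = 0.000895) and Chordc1 was higher (0.73, adjusted p = 0.0250). Over all genes 22.2% were called higher and 21.7% lower in this comparison, so the count for the 10 genes is near the background. At 135 min, HS exceeded tunicamycin for Stip1 (1.39, adjusted p = 0.0399), St13 (1.87, adjusted p = 0.0169) and Ahsa1 (1.60, adjusted p = 0.0191). Here 1.41% of all genes were called higher and 0.778% lower. In each of the 6 cases all 3 libraries of a group lay on one side of all 3 of the other. That adds no further support, since the 6 were picked by their difference. Of the 6, Fkbp5 kept its call whichever of the 6 libraries was left out, Hsp90ab1 for 3 of them and Chordc1 for 2, and the difference of Chordc1 was also lost in a shared fit of all 6 groups (adjusted p = 0.257) and with total counts (adjusted p = 0.0761). The 3 differences between HS and tunicamycin were lost without HS 135 min 3 or without any 1 of the tunicamycin libraries. In those fits at most 2 of the 12731 genes were called. With 1 library left out, St13 and Ahsa1 were called in 2 fits and Stip1 in 1. With the replicate block Fkbp5 was the 1 of the 6 still called. Groups of 3 were too small to test for single outlying libraries.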

How the results depend on the processing

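The number of the 10 genes called depended on the model and on single libraries. Pairs of percentages below give the shares of all genes called higher and lower in the same fit. At 45 min of HS the number went from 0 to 1 with a surrogate variable and to 5 without the libraries that stand apart. The pairs were 5.03% and 5.3%, then 31.3% and 31.1%. At 135 min of HS it went from 4 to 0 with the replicate block, 9 with a surrogate variable in the shared fit (6 in that fit without the variable) and 7 without the libraries that stand apart. The pairs were 0.0% and 0.0% with the block, 18.8% and 20.6% with the variable, and 14.4% and 11.1% without it. Without the libraries that stand apart, 1531 of the 12731 genes were called higher and 1726 lower. At 45 min of tunicamycin the number went from 0 to 3 (DESeq2 Wald test), 2 (edgeR exact test), 1 (shared fit) and 5 (surrogate variable). In that order the pairs were 7.63% and 6.84%, 6.42% and 5.2%, 3.32% and 1.64%, and 13.4% and 12.4%. At 135 min of tunicamycin the number went from 0 to 1 (Wald), 1 (exact), 3 (surrogate variable) and 6 (libraries that stand apart left out). In that order the pairs were 2.58% and 2.64%, 2.25% and 2.14%, 10.2% and 11.3%, and 19.3% and 25.2%. At 405 min the number went from 3 to 1 (Fkbp5) in the shared fit, with a pair of 15.8% and 16.1%. Between HS times the number went from 0 to 4 (Wald), 2 (exact), 5 (shared fit), 9 (surrogate variable) and 5 (libraries left out). In that order the pairs were 1.52% and 1.64%, 0.903% and 0.613%, 3.61% and 3.5%, 13.5% and 12.7%, and 18.6% and 11.9%. Between 405 and 135 min of tunicamycin the replicate block gave 1 in place of 3, with a pair of 15.2% and 14.9%. Between HS and tunicamycin the number went from 3 to 6 (Wald), 5 (exact), 6 (shared fit), 0 (replicate block), 8 (surrogate variable) and 6 (libraries left out). In that order the pairs were 5.62% and 4.25%, 4.78% and 2.74%, 7.82% and 6.06%, 0.0% and 0.0%, 17.2% and 17.0%, and 6.63% and 5.29%. The replicate block moved no other count past 1.5 times. Leaving out 1 library in turn gave 0 to 5 calls at 45 min of HS, 0 to 6 at 135 min, 0 to 5, 0 to 0 and 2 to 7 at 45, 135 and 405 min of tunicamycin, 0 to 0 between HS times, 1 to 4 between tunicamycin times (1 without Tu 405 min 2, Tu 405 min 3 or Tu 135 min 3) and 0 to 4 between the stresses. Where the count changed, the fit with the most calls also called more of all genes higher than the fit of all 6 libraries. The pairs in these fits were 21.5% and 23.9% at 45 min of HS, and 9.94% and 9.17% at 45 min of tunicamycin. They were 30.3% and 31.6% at 405 min, 33.2% and 30.8% between tunicamycin times, and 2.38% and 0.683% between the stresses. At 135 min of HS the fit with 6 calls called 1534 of the 12731 genes higher and 932 lower. Leaving out a library also lowers the power of the test, and apart from that the cause of these changes was not tested.

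The difference of the log2 alpha to beta ratio over all tunicamycin libraries was -1.06 with and without the replicate block. It was -1.12 to -0.92 with 1 library left out. With the block, p was 0.25 by exact permutation within blocks. All 9 tunicamycin libraries lay below every reference library, so this was the smallest p that the blocked test could give. That test could not have fallen under 0.05, and no conclusion is drawn from it. Over both HS times the difference was -1.25 to -0.77, and its unadjusted p was under 0.05 without HS 135 min 1 (-1.25, exact permutation p = 0.0357, not adjusted over the 7 comparisons). HS 135 min 1 was the 1 HS library above the reference. Leaving it out separates the groups fully, which fixes p at the smallest value that fit allows. The ranges for single groups were -1.86 to -0.79 and -1.16 to -0.16 for HS at 45 and 135 min, and -1.09 to -0.63, -1.79 to -1.09 and -0.90 to -0.77 for tunicamycin at 45, 135 and 405 min.

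Sign changes touched log2 fold changes that had not passed the threshold. With a surrogate variable, Hsp90aa1 (0.09), Cdc37 (-0.01), Ptges3 (-0.00) and Fkbp5 (-0.08) turned at 45 min of HS, Chordc1 (0.49) at 135 min, Cdc37 at 135 (-0.07) and 405 min (-0.02) of tunicamycin, and Hsp90aa1 between tunicamycin times (0.14). With total counts, Fkbp5 at 45 min of HS (-0.16), St13 at 45 min of tunicamycin (0.06), and Cdc37 (-0.00) and Ptges3 (-0.06) between tunicamycin times turned, the last also with DESeq2 size factors (-0.01) and the Wald test (-0.01). With the replicate block Fkbp5 (-0.00), St13 (0.01) and Hsp90aa1 (0.02) turned in those comparisons. With TMM within the comparison Cdc37 turned between HS times (-0.00). Without the libraries that stand apart, Hsp90ab1 at 45 min (-0.12) and Chordc1 at 135 min (0.05) of HS, Stip1 (-0.16) and Cdc37 (-0.11) at 135 min of tunicamycin, and Cdc37 between HS times (-0.27) turned. With 1 library left out, the ranges that crossed 0 were Hsp90ab1 (-0.03 to 0.30), Ptges3 (-0.09 to 0.50) and Fkbp5 (-0.03 to 0.03) at 45 min of HS, Chordc1 (-0.50 to 0.25) at 135 min, Hsp90ab1 (-0.10 to 0.21) and St13 (-0.34 to 0.12) at 45 min of tunicamycin, Stip1 (-0.04 to 0.19), Cdc37 (-0.10 to 0.18) and Fkbp4 (-0.30 to 0.03) at 135 min, Cdc37 (-0.12 to 0.25) between HS times, and Hsp90aa1 (-0.33 to 0.27), Cdc37 (-0.03 to 0.26), Ptges3 (-0.13 to 0.22) and Fkbp4 (-0.22 to 0.11) between tunicamycin times.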

Other observations

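The glucocorticoid receptor needs HSP90 to bind hormone, which Fkbp4 favors and Fkbp5 lowers, and 12 of 13 listed target genes of the receptor were tested. At 135 min of HS 3 rose, the metallothionein genes Mt2 (log2 fold change 2.89, adjusted p = 0.00909) and Mt1 (2.10, adjusted p = 0.0127) and the transcriptional regulator gene Tsc22d3 (2.56, adjusted p = 0.00832), and the kinase gene Sgk1 fell (-1.40, adjusted p = 0.0380), by edgeR's quasi-likelihood test. Over all genes 4.75% rose and 2.64% fell, and the median over the list was 0.31, against -0.02 over all genes. At 405 min of tunicamycin 6 rose and 3 fell: Cebpb (1.45), Tsc22d3 (1.43) and Ddit4 (1.23) had the largest rises, and Sgk1 (-2.18), Dusp1 (-1.37) and Errfi1 (-1.29) were the genes that fell. Over all genes 22.4% rose and 24.2% fell, so that the share that fell is near the background. The median was 0.21, against -0.03. These genes answer to other regulators as well, Fkbp5 is itself a textbook target of the receptor, and no relation between the targets and the HSP90 genes was tested.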
